A study of Mus musculus with 4 samples.

Results

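Open chromatin was described at the genes of 6 basic helix-loop-helix transcription factors that bind E-box DNA: the repressors Bhlhe40 and Bhlhe41, and the microphthalmia (MiT) family members Mitf, Tfe3, Tfeb and Tfec. All deposited peaks that overlapped one of these genes or its 20 kb flanks (GRCm38, GENCODE M21) were taken, without regard to their values. The strict peaks among them, those with a −log10 q of at least 2, fell into 91 regions of 155546 merged over the 4 libraries: 9 at Bhlhe40, 12 at Bhlhe41, 27 at Mitf, 10 at Tfe3, 15 at Tfeb and 18 at Tfec. The libraries came from an ATAC-seq experiment, in which the transposase Tn5 cuts accessible DNA, on microglia sorted by flow cytometry from the brains of untreated C57BL/6 mice aged 3 months. There were 2 libraries of WT and 2 of IRF8KO mice, the latter lacking, by its label, the interferon regulatory factor IRF8. The labels do not say which part of Irf8 was removed or whether the 2 replicates of a genotype came from separate animals, so p-values measure only the spread between these libraries.

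Dimers of BHLHE40 and BHLHE41 bind the palindromic E-box CACGTG and repress transcription, and they feed back on the circadian clock. TFEB and TFE3 bind related sites in lysosomal and autophagy genes and are held in the cytoplasm when mTORC1 phosphorylates them. MITF is best known in melanocytes and osteoclasts, and TFEC is expressed mainly in macrophages. IRF8 binds DNA with the ETS factor PU.1 at composite ETS-IRF elements and is a lineage factor of microglia.

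Depth followed genotype. The WT libraries held 46948938 and 48896408 tags and the IRF8KO libraries 78793572 and 66224648, so values are given as normalised pileup, the cut sites stacked at a peak summit per 1000000 tags, which assumes that pileup scales with tag number. Over the 58550 regions with a deposited peak in all 4 libraries, the median normalised pileup was 0.767 in WT replicate 1, 0.614 in WT replicate 2, 0.444 in IRF8KO replicate 1 and 0.695 in IRF8KO replicate 2. The median region was thus lower in IRF8KO by -0.31 on the log2 scale (-0.061 without IRF8KO replicate 1 and -0.60 without IRF8KO replicate 2), and IRF8KO replicate 1 was the lowest library. Promoters of all 8 microglia markers held a strict peak in every library, and their summed promoter normalised pileup was 25.1 and 17.96 in WT against 10.9 and 17.8 in IRF8KO, lower in both IRF8KO libraries though only just so in replicate 2. The strongest peak at the Irf8 promoter, which cannot check the deletion, had a normalised pileup of 2.07 and 1.49 in WT against 0.863 and 1.36 in IRF8KO. Strict peaks in the Irf8 gene body went the other way, numbering 5 and 5 in WT against 7 and 6 in IRF8KO. Border macrophage markers had a higher sum in IRF8KO, with a summed promoter normalised pileup over 6 genes of 1.06 and 1.17 in WT against 2.75 and 4.67 in IRF8KO. Their promoters held strict peaks at 2 and 4 of 6 genes in WT and 4 and 5 of 6 in IRF8KO. Mrc1, Pf4 and Cd163 (no peak in WT) carried the sum, while Cd38 (0.149 and 0.245 in WT against 0.228 and 0.362 in IRF8KO) and F13a1 (0.128 and 0.307 against 0.140 and 0.181) overlapped between genotypes and Lyve1 had no peak in any library. Besides the microglia sum, those of 4 lists of other cells were lower in both IRF8KO libraries. Endothelial markers had sums of 8.12 and 6.79 in WT against 1.81 and 2.54 in IRF8KO over 6 genes, mostly at Cdh5, while Pecam1 overlapped and Tie1 had no promoter peak. Oligodendrocyte markers summed to 3.77 and 2.70 against 0.838 and 1.66, neuronal markers to 1.17 and 1.74 against 0.596 and 0.861, and neutrophil markers to 1.19 and 0.614 against 0.178 and 0.453, each over 6 genes with WT first. Mag of the first list and S100a9, Elane, Mpo and Ly6g of the last had no promoter peak, and the sums of astrocyte markers overlapped (3.22 and 2.31 against 2.07 and 3.84). B and T cell markers summed to 1.11 and 1.31 in WT against 3.58 and 3.44 in IRF8KO, almost wholly from Cd3d, with no promoter peak in any library at Ms4a1, Cd79a, Cd3e and Cd8a. A change in open chromatin per cell and a change in the share of cells cannot be told apart in such libraries, and the part of other cells in the differences below was not tested.

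The promoters of the 6 genes were open in every library, at levels that differed widely between genes. In WT the strongest peak within 1 kb of a start site was highest at Mitf, with a mean normalised pileup of 5.30 ± 0.14 (SD, n = 2), followed by Tfe3 at 3.98 ± 0.070, Tfeb at 3.48 ± 0.56, Bhlhe41 at 2.03 ± 0.84, Bhlhe40 at 1.03 ± 0.16 and Tfec at 0.377 ± 0.099. The WT libraries of neighbours in this order did not overlap, though the means of Tfe3 and Tfeb were closer to each other than the SD at Tfeb. In IRF8KO the order changed at one place, because Bhlhe40 moved from the fifth to the second rank with a mean of 4.35 ± 0.47. There Mitf (4.58 ± 1.67), Bhlhe40 and Tfe3 (3.62 ± 0.95) overlapped, above Tfeb (2.46 ± 0.37), Bhlhe41 (1.85 ± 0.43) and Tfec (1.11 ± 0.29). Exact two-sided permutation tests of IRF8KO against WT gave p = 0.3333 for Bhlhe40, Tfeb and Tfec, the smallest that 2 against 2 libraries allow, and p = 1 for the other 3 genes (0.667 and 1 after Benjamini-Hochberg adjustment over the 6 genes). At Bhlhe41 the limit of 1 kb left out the highest peak of WT replicate 2, and with a limit of 2 kb its difference was -0.56 in place of -0.17 (exact permutation p = 0.3333).

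**Figure D1:**
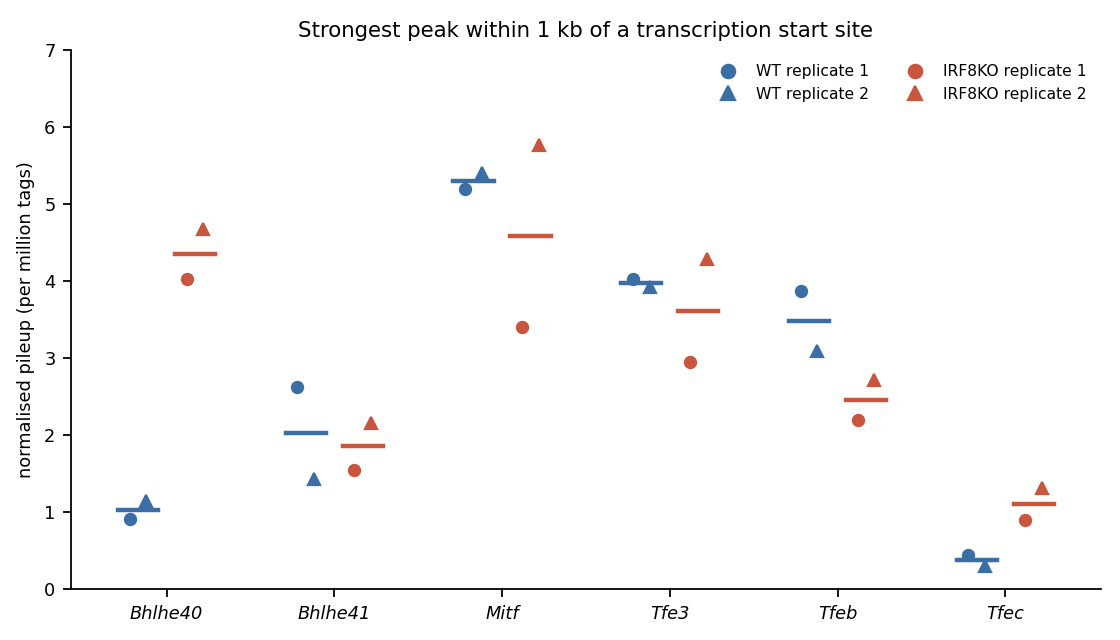
Strongest peak within 1 kb of any annotated start site of each gene, as normalised pileup on a linear axis from 0. Points are the 4 libraries and bars are group means; both IRF8KO libraries lie above both WT libraries at Bhlhe40 and Tfec, and below them at Tfeb.

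Of the 91 regions, 41 held a strict peak in all 4 libraries (45.1%, against 31.0% of all regions) and 25 in 1 library only (27.5%, against 43.1%). Besides the regions, 12 and 16 deposited peaks in WT and 16 and 19 in IRF8KO around these genes were not strict and overlapped none, all with a normalised pileup of at most 0.383. Presence and absence separated the genotypes at 13 regions. WT-specific regions, strict in both WT libraries and without any deposited peak in both IRF8KO libraries, numbered 7 (7.69%), against 5.58 percent of all regions. IRF8KO-specific regions, the converse, numbered 6 (6.59%), against 3.86 percent of all. Of the 31 regions that were neither genotype-specific nor listed in all 4 libraries, 7 were listed in IRF8KO replicate 2 alone, 4 in IRF8KO replicate 1 alone, 4 in WT replicate 1 alone, 2 in WT replicate 2 alone and 6 in both IRF8KO libraries without being strict in both. The counts depended on rules and libraries. The WT-specific count was 4 with a −log10 q of 5 and 11 without WT replicate 2. The IRF8KO-specific count was 17 without IRF8KO replicate 1, 12 without IRF8KO replicate 2 and 10 without WT replicate 1. It was 3 when a peak had to cover 50% of a region. Leaving out a library loosens the rule, as 1 library then decides for its genotype. The shares of all regions under these alternatives are not given here, so the changes cannot be read as particular to these genes.

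Heights were tested with limma on log2 normalised pileup over the 58550 regions with a deposited peak in all 4 libraries, 47 of them at these genes, with Benjamini-Hochberg adjustment over all. Past an adjusted p of 0.05, 5 of the 47 rose in IRF8KO and 2 fell, while 2.81 percent of all regions rose and 6.82 percent fell. The 5 regions that rose lie at Tfec (3), Bhlhe40 and Tfeb, and the 2 that fell lie in Mitf. With each library centred on its median, 11 of the 47 rose and 4 fell, against 13.3 percent and 12.5 percent of all. The median log2 difference was -0.11 over the 47 and -0.31 over all regions, and after centring 0.19 and -0.0018. The estimated prior degrees of freedom were so large that the SE of a region came from a trend with mean height pooled over all regions, and hardly from its own scatter. Both IRF8KO libraries were above both WT libraries at 10 of the 47 regions and below them at 11, against 11.9 percent and 37.1 percent of all regions tested. Without either WT library only 1 region of the 7, in Tfec, kept its call, in fits where 0.220% to 0.230% of all regions rose and 0.229% to 0.599% fell. Without IRF8KO replicate 2 the count of regions that fell was 6 of 49 (12.2%), against 21.5% of all.

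**Figure D2:**
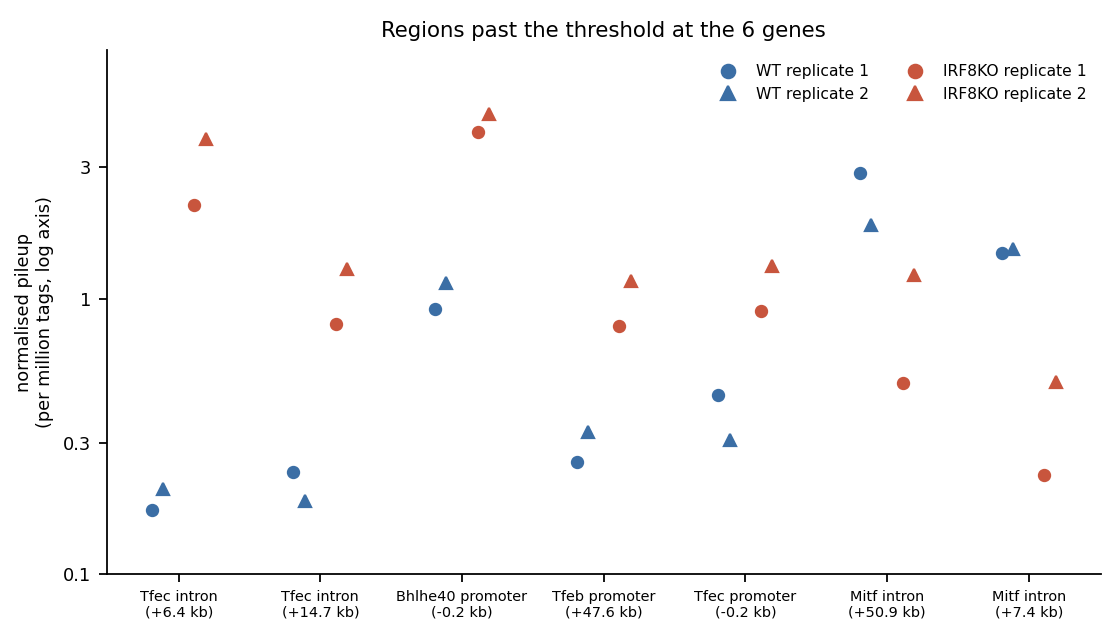
Normalised pileup on a log axis in each of the 4 libraries for the 7 regions past an adjusted p of 0.05, ordered by log2 difference, with the distance of the summit from the 5′ end of the gene. WT and IRF8KO libraries do not overlap in any of the 7, which passed a test on these values; in the first 5 the IRF8KO libraries are above, in the last 2 below.

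Bhlhe40 held the region with the second smallest p of the 6 genes. Its main promoter region, chr6:108659247-108660735, is 1489 bp long and holds 2 main summits, one 155 bp upstream of the start of Bhlhe40-201 and the other 973 bp farther upstream. The highest normalised pileup in the region was 0.916 and 1.15 in WT against 4.02 and 4.68 in IRF8KO, a mean of 1.03 ± 0.16 against 4.35 ± 0.47 (SD, n = 2 each). Both IRF8KO libraries stood above both WT libraries, and the log2 difference was 2.08 (SE 0.43, limma adjusted p = 6.33e-05). The increase was not even over the region. At the summit 155 bp upstream of the start, normalised pileup was 0.405 and 0.389 in WT against 2.89 and 4.68 in IRF8KO. At the distal summit it was 0.916 and 1.15 in WT against 4.02 and 4.35 in IRF8KO. In WT the distal summit was therefore the higher of the pair in both libraries, and in IRF8KO replicate 2 the proximal one was. When libraries were compared at summits within 100 bp of each other, an alternative added after the data were seen, the log2 difference at the proximal summit was 3.21 (limma adjusted p = 5.94e-09). The antisense gene 0610040F04Rik also starts within 1 kb, and ATAC-seq signal does not tell the 2 genes apart.

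The authors' fold enrichment, which divides a pileup by the local background in the same library, gave another picture of this promoter. It was 7.89 and 10.1 in WT against 12.5 and 10.6 in IRF8KO, a log2 difference of 0.36 (limma adjusted p = 0.584), so the call ended on this measure. At the proximal summit alone fold enrichment was 3.60 and 3.45 in WT against 8.94 and 10.6 in IRF8KO. The intronic region chr6:108661553-108661871, 781 bp inside the nearest start site, had nearly equal normalised pileup in all libraries (0.916 and 0.838 in WT, 0.838 and 1.01 in IRF8KO). Its fold enrichment was 7.99 and 7.07 in WT but 2.60 and 2.31 in IRF8KO, a log2 difference of -1.62 (limma adjusted p = 0.0165). Local background over the gene was thus higher in the IRF8KO libraries. With no control library, this background came from the same tags over 10 kb, a span that takes in the promoter peaks themselves. Fold enrichment and pileup are therefore not independent here, and the part of the promoter peaks in the background was not tested.

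A smaller region 2.17 kb upstream of Bhlhe40, chr6:108658358-108658741, was also higher in both IRF8KO libraries. Its normalised pileup was 0.320 and 0.409 in WT against 0.761 and 1.07 in IRF8KO, without overlap, a log2 difference of 1.32 (SE 0.52, limma adjusted p = 0.0937). It passed the threshold when libraries were centred on their medians (log2 1.63, limma adjusted p = 1.17e-05) and without IRF8KO replicate 1 (log2 1.57, adjusted p = 0.0103), while its sign turned in fold enrichment (log2 -0.43, adjusted p = 0.411). Of the other Bhlhe40 regions, 6 were strict in 1 library only, among them a region in exonic sequence, chr6:108660836-108660913, that reached a normalised pileup of 0.584 in IRF8KO replicate 1 and had no peak elsewhere. No Bhlhe40 region was specific to either genotype.

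**Figure D3:**
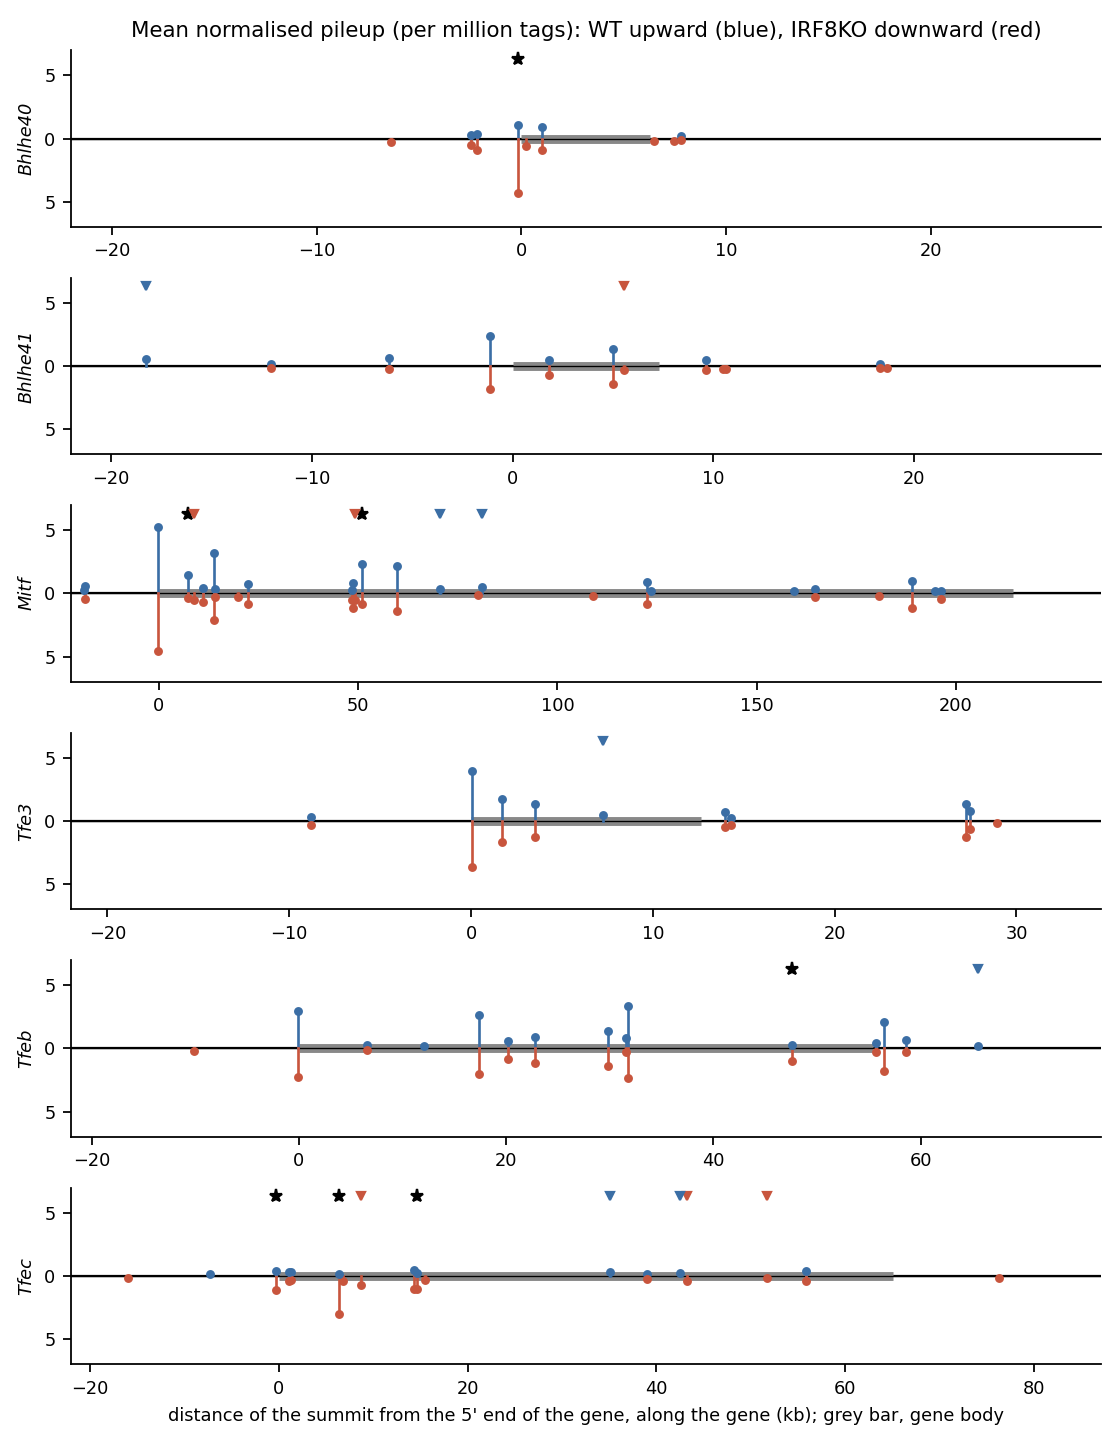
Mean normalised pileup of each region, upward for WT and downward for IRF8KO, over the libraries of a genotype with a deposited peak, against the distance of the summit from the 5′ end of the gene (kb; grey bar, gene body; vertical axes alike). Stars mark the 7 regions past the limma threshold, and blue and red triangles mark the 7 WT-specific and 6 IRF8KO-specific regions; the longest IRF8KO bars without a WT counterpart of like height are at Bhlhe40 and Tfec.

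Bhlhe41, the paralogue of Bhlhe40, had no region past the threshold as scaled by tags. Its promoter region, chr6:145865300-145866894, had a normalised pileup of 2.62 and 2.21 in WT against 1.55 and 2.16 in IRF8KO, a log2 difference of -0.40 (95% interval -1.23 to 0.44, limma adjusted p = 0.670). A region in exonic sequence of the gene, chr6:145860423-145860710, had 1.19 and 1.55 in WT against 1.003 and 1.80 in IRF8KO. Of the 6 Bhlhe41 regions tested, 1 had a higher and 1 a lower call after median centring. The one with the higher call, chr6:145863629-145863862 in exonic sequence, had 0.554 and 0.368 in WT against 0.520 and 0.921 in IRF8KO, with overlap (log2 0.62, limma adjusted p = 0.569; after centring 0.92, adjusted p = 0.0145). The one with the lower call, chr6:145871587-145871860, 6.13 kb upstream, had 0.873 and 0.389 in WT against 0.203 and 0.287 in IRF8KO (log2 -1.27, limma adjusted p = 0.115). It passed after centring (log2 -0.97, adjusted p = 0.0279) and without IRF8KO replicate 2 (log2 -1.52, adjusted p = 0.0103). A WT-specific region, chr6:145883708-145883992, lay 18.3 kb upstream with 0.660 and 0.450 in the WT libraries. At the lower of these levels the smaller IRF8KO library would have had a pileup of 29.8, and the lowest pileup listed around the gene in that library was 9. An IRF8KO-specific region, chr6:145859956-145860150, lay in exonic sequence with 0.241 and 0.438.

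Bhlhe41 regions held the motif that these factors themselves bind. The letters CACGTG, which are the same on both strands, lay within 100 bp of the summit in 8 of the 91 regions (8.79%, against 4.09% of all 155546 regions), and 4 of the 8 are among the 12 Bhlhe41 regions. They are the promoter region, the regions with a lower and a higher call after centring, and a region 9.37 kb from the nearest start on the downstream side, which holds CACGTG at 2 places. That downstream region, chr6:145855705-145856181, had a normalised pileup of 0.490 and 0.389 in WT against 0.216 and 0.438 in IRF8KO, with overlap. The extended form TCACGTGA was in none of the 91 regions (0.348% of all). Stretches of 151 bases centred on the summits of the 2 distal regions are printed with CACGTG in capitals, to show how the E-boxes sit relative to the summit.
Bhlhe41 upstream region, chr6:145871616-145871766 (plus strand): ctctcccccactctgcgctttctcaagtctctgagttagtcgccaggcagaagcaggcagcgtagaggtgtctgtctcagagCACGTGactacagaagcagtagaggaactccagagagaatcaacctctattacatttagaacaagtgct
Bhlhe41 downstream region, chr6:145855853-145856003 (plus strand): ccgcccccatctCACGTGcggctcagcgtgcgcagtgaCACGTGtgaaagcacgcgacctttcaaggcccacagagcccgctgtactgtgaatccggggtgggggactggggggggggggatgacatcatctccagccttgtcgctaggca
In the upstream region the E-box begins 7 bp from the summit, and in the downstream region the E-boxes begin 63 and 37 bp before it.

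Mitf, the founding MiT factor, was the only one of the 6 genes with regions that fell as scaled by tags (1 Bhlhe41 and 1 Tfeb region fell too after centring, and regions of both genes did so without IRF8KO replicate 2, where 21.5% of all regions fell). Its main promoter, chr6:97806774-97807145, was the most open of all 91 regions and did not differ by more than the spread, with a normalised pileup of 5.20 and 5.40 in WT against 3.40 and 5.77 in IRF8KO (log2 -0.26, 95% interval -1.02 to 0.50, limma adjusted p = 0.771). The intronic region chr6:97814262-97814536, 7.36 kb from the 5′ end of the gene, fell from 1.47 and 1.51 in WT to 0.228 and 0.498 in IRF8KO. The WT values were nearly equal and both IRF8KO values lay far below them, and the log2 difference was -2.14 (SE 0.51, limma adjusted p = 8.37e-04). The intronic region chr6:97857771-97858057, 50.9 kb from the 5′ end, fell from 2.85 and 1.86 to 0.495 and 1.22, a log2 difference of -1.57 (SE 0.46, limma adjusted p = 0.0101). Both also fell in fold enrichment, by 1.73 and 1.27 on the log2 scale (limma adjusted p = 0.0122 and 0.0445). Without either WT library the calls ended at both regions, and without IRF8KO replicate 1 the call ended at the second (log2 -0.91). The differences stayed negative whichever library was left out. They ran from -2.71 to -1.58 at the first region and from -2.22 to -0.91 at the second. Other strong intronic regions of Mitf, such as chr6:97820436-97821022 with 3.98 and 2.50 in WT against 1.75 and 2.45 in IRF8KO, were not past the threshold (adjusted p = 0.450).

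The second region that fell held an ETS-IRF element (GGAA, 2 free bases and GAAA, on either strand) 30 bp before its summit. Among all regions this motif was within 100 bp of the summit in 4.30%, and in 18.7% of the WT-specific ones. A WT-specific intronic region of Mitf, chr6:97877441-97877774, with 0.405 and 0.266 in the WT libraries, also held it, beginning 5 bp after the summit. So did 2 Mitf regions that were not past the threshold and overlapped between genotypes, chr6:97788460-97788895 (log2 -0.59, limma adjusted p = 0.593) and chr6:97995636-97996137 (log2 0.11, adjusted p = 0.927). The first region that fell held a CEBP motif (TTGCNNAA) and a PU.1 motif (GAGGAAGT) but no ETS-IRF match. The 3 stretches are printed with these matches, on either strand, in capitals.
Mitf intronic region that fell, with ETS-IRF, chr6:97857844-97857994 (plus strand): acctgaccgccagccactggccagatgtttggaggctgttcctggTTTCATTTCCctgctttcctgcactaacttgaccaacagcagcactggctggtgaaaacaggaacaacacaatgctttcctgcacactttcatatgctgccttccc
Mitf WT-specific region, with ETS-IRF, chr6:97877473-97877623 (plus strand): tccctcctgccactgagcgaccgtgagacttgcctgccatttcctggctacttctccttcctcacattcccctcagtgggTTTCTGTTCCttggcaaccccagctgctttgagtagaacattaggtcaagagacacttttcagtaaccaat
Mitf intronic region that fell, with CEBP and PU.1, chr6:97814332-97814482 (plus strand): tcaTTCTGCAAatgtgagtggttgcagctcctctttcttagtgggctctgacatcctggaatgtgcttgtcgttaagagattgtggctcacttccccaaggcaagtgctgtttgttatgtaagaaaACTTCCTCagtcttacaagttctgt
A match is a string of letters and not evidence of binding.

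Other Mitf regions had the opposite sign, even close by. Just 1297 bp before the ETS-IRF region that fell ends the IRF8KO-specific region chr6:97856292-97856473, with 0.457 and 0.649 in the IRF8KO libraries and no deposited peak in WT. At the lower of these levels the smaller WT library would have had a pileup of 21.5, where the lowest pileup listed around the gene was 6. Next to it lie 2 regions, 30 bp apart, in which both IRF8KO libraries were above both WT libraries. The normalised pileup of chr6:97855743-97856171 was 1.001 and 0.593 in WT against 1.003 and 1.31 in IRF8KO, the lower IRF8KO value being only just above the higher WT value. That of chr6:97855476-97855712 was 0.341 and 0.225 in WT against 0.406 and 0.664 in IRF8KO. Neither passed the threshold as scaled by tags (limma adjusted p = 0.564 and 0.339), and both did after median centring (0.00494 and 0.00363). The IRF8KO-specific region of this cluster held an E-box CACGTG at its edge and a CEBP motif, in capitals.
Mitf IRF8KO-specific region, chr6:97856283-97856433 (plus strand): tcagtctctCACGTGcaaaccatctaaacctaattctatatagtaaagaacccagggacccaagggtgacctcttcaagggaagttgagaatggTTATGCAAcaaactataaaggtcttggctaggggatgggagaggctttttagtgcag
The other IRF8KO-specific region of Mitf, chr6:97815823-97816038, had 0.355 and 0.740, and the other WT-specific one, chr6:97888029-97888202, had 0.618 and 0.389. At an annotated internal start site of Mitf the region chr6:97929188-97929848, with its summit 122 kb from the 5′ end of the gene, had 1.001 and 0.757 in WT against 0.698 and 1.04 in IRF8KO (limma adjusted p = 0.983). Near the same start the region chr6:97930549-97930674 had a peak in WT replicate 1 alone (0.234).

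**Figure D4:**
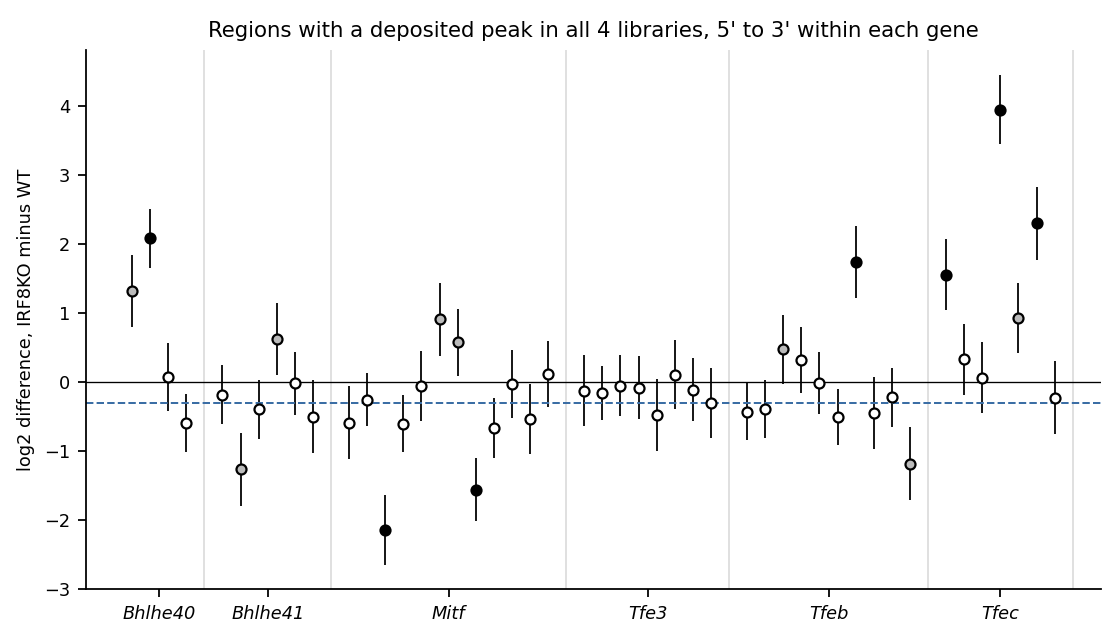
Log2 difference, IRF8KO minus WT, with its SE for the 47 regions with a deposited peak in all 4 libraries, ordered from 5′ to 3′ within each gene. Black points pass an adjusted p of 0.05, grey points pass after each library is centred on its median but not as scaled by tags, and the dashed line is the median of all 58550 regions (-0.31); the black points range from -2.14 in Mitf to 3.95 in Tfec.

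Tfe3, an X-linked activator of lysosomal genes, differed least among its regions. None of its 8 tested regions passed the threshold with or without centring, and their log2 differences ran from -0.48 to 0.10. The promoter region chrX:7762383-7762875 had a normalised pileup of 4.03 and 3.93 in WT against 2.94 and 4.29 in IRF8KO (log2 -0.16, 95% interval -0.94 to 0.62, limma adjusted p = 0.866). The intronic region chrX:7763697-7764368, at a second start site, had 2.24 and 1.31 in WT against 1.28 and 2.11 in IRF8KO, with wide overlap. One region was WT-specific, chrX:7769727-7769893 in exonic sequence near a downstream start site, with 0.490 and 0.389. The downstream regions at the edge of the flank lie at the promoter of the neighbouring gene Gripap1 and cannot be assigned to Tfe3.

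Tfeb, the master regulator of lysosomal genes, had 6 regions at start sites, of which the 3 strongest were lower on average in IRF8KO and 1, inside the gene, rose. The first promoter, chr17:47736863-47737949, had a normalised pileup of 2.88 and 3.09 in WT against 1.79 and 2.72 in IRF8KO (log2 -0.43, limma adjusted p = 0.622). The region chr17:47754187-47754567 at a second start had 3.05 and 2.27 against 1.60 and 2.49 (log2 -0.40, adjusted p = 0.664). The region chr17:47768691-47769296 at a further start had 3.88 and 2.92 against 2.20 and 2.55 (log2 -0.51, adjusted p = 0.544). None passed the threshold, and the differences depended on the library left out, running from -0.74 to -0.13, -0.72 to -0.078 and -0.71 to -0.31 in the same order. Of the other start site regions, chr17:47759729-47760360 had 0.852 and 0.900 in WT against 0.888 and 1.34 in IRF8KO (log2 0.32, adjusted p = 0.771), and chr17:47768519-47768646 had 0.916 and 0.798 in WT against 0.292 and no deposited peak, so it was not tested. The region that rose, chr17:47784479-47784809, lies in an intron 1.11 kb upstream of the start of Tfeb-201. It went from 0.256 and 0.327 in WT to 0.800 and 1.16 in IRF8KO, without overlap, a log2 difference of 1.74 (SE 0.53, limma adjusted p = 0.0151). It also rose in fold enrichment (log2 1.50, adjusted p = 0.0249), and its call ended without either WT library (adjusted p = 0.864 and 0.492). The stretch around its summit held 2 CEBP motifs, in capitals, and none of the E-box or IRF motifs searched.
Tfeb intronic region that rose, chr17:47784532-47784682 (plus strand): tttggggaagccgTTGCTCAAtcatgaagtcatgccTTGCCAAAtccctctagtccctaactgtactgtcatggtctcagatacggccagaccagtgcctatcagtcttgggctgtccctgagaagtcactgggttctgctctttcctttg
The intronic region chr17:47757095-47757502 had 0.596 and 0.654 in WT against 0.825 and 0.906 in IRF8KO, without overlap, and passed after centring (log2 0.77, limma adjusted p = 0.0290) but not as scaled by tags (log2 0.47, adjusted p = 0.670). The WT-specific region of Tfeb, chr17:47802435-47802594, had a low normalised pileup of 0.213 and 0.184 in the WT libraries. A region 6.14 kb from the last start site on the downstream side, chr17:47795466-47795720, had 0.767 and 0.654 in WT against 0.305 and 0.317 in IRF8KO (log2 -1.19, limma adjusted p = 0.158). It passed after centring (log2 -0.88, adjusted p = 0.0304) and without IRF8KO replicate 2 (log2 -1.22, adjusted p = 0.0374).

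Tfec, the MiT factor with the most restricted expression, had the weakest promoter of the 6 genes in WT and the largest single rise. The intronic region chr6:16891748-16892333, 6.36 kb from the 5′ end of the gene, was barely listed in WT, with a normalised pileup of 0.170 and 0.205, and reached 2.18 and 3.81 in IRF8KO. The lowest IRF8KO library was thus far above the highest WT library, and the log2 difference was 3.95 (SE 0.51, limma adjusted p = 6.31e-12). Among all 58550 regions tested this difference stood at the 99.98th percentile. The WT peaks rested on pileups of 8 and 10, and the peak in WT replicate 1 was not strict. Of the 7 regions it alone kept its call without either WT library (limma adjusted p = 0.00372 and 0.00103). It was 1 of 5 that also passed in fold enrichment (log2 2.64, adjusted p = 0.00257).

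A second intronic region of Tfec, chr6:16883545-16883901, 14.7 kb from the 5′ end, rose from 0.234 and 0.184 to 0.812 and 1.28 (log2 2.30, SE 0.53, limma adjusted p = 5.60e-04). It lies 55 bp from the region chr6:16883957-16884406, which was open in both genotypes, with 0.575 and 0.450 in WT against 0.736 and 1.27 in IRF8KO (log2 0.93, adjusted p = 0.302; after centring 1.23, adjusted p = 2.72e-04; without IRF8KO replicate 1 1.32, adjusted p = 0.0303). The promoter region, chr6:16898292-16898800, rose from 0.447 and 0.307 to 0.901 and 1.31 (log2 1.55, SE 0.52, limma adjusted p = 0.0321). In fold enrichment the second intronic region passed (log2 1.66, adjusted p = 0.0192), while the promoter difference was 1.14 with an adjusted p of 0.0611, so the promoter call ended on that measure. Without either WT library the calls of the second intronic region (adjusted p = 0.289 and 0.371) and of the promoter (0.649 and 0.844) ended. In the promoter region the higher summit of both WT libraries lay at the start site side, and that of both IRF8KO libraries up to 259 bp farther upstream. Compared at nearest summits within 100 bp, the promoter difference was 2.27 (limma adjusted p = 0.00127).

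Of the 18 Tfec regions, 3 were IRF8KO-specific and 2 WT-specific. The highest of the IRF8KO-specific regions, chr6:16889535-16889805, 8.74 kb from the 5′ end, had 0.355 and 1.07, the higher value being that of replicate 2. The others had 0.254 and 0.559 (chr6:16854931-16855329) and 0.165 and 0.196 (chr6:16846639-16846789). A WT-specific region, chr6:16855858-16855952, began 528 bp after the first of these 2 ended, with 0.234 and 0.184 in WT, and the other, chr6:16862861-16863401, had 0.405 and 0.245. From the 5′ end, the IRF8KO-specific regions lay at 8.74, 43.2 and 51.7 kb and the WT-specific ones at 35.1 and 42.5 kb, so the 2 kinds were not separated along the gene. The border macrophage list, whose values are given above, was higher in both IRF8KO libraries in its sum and at 3 of its 6 genes, and the part of such cells in the Tfec and Bhlhe40 differences was not tested.

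The Tfec sequences are printed because they carry the largest rise. The region with the largest rise holds the overlapping letters of an AP-1 motif (TGANTCA) and an M-box (TCATGTG, a MiT factor site), which together form the capitals, beginning 32 bp after the summit. The second intronic region holds an interferon-stimulated response element core (GAAA, 2 free bases and GAAA) and the IRF8KO-specific region holds an ETS-IRF and a PU.1 match.
Tfec intronic region with the largest rise, chr6:16892007-16892157 (plus strand): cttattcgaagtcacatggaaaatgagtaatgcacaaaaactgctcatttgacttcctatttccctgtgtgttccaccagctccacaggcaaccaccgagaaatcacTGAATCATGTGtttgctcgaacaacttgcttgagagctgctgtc
Tfec second intronic region, chr6:16883678-16883828 (plus strand): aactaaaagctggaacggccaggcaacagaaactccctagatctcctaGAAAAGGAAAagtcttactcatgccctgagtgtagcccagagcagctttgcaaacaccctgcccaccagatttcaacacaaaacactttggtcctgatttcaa
Tfec IRF8KO-specific region, chr6:16889628-16889778 (plus strand): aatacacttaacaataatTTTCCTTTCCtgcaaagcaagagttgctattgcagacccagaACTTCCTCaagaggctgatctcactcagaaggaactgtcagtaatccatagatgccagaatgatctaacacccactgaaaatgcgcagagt
Tfec promoter, chr6:16898392-16898691 (minus strand): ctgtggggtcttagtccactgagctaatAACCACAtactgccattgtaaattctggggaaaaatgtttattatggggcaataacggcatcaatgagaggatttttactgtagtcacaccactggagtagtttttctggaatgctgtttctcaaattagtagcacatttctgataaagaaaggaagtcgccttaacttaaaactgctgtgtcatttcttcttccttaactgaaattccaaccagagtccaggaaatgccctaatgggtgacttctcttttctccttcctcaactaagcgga
The Tfec promoter is the RefSeq sequence (GRCm38.p6) from 250 bases before to 50 after the start, and its capitals mark a RUNX motif (TGTGGTT on either strand), which 5.29% of 32619 RefSeq promoters of this length hold. Promoters of 5 of the 6 genes were found in that table.

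Motif counts over the 91 regions stand beside those of all regions as a description. M-boxes were found in 5 regions (5.49%, against 3.85% of all), ETS-IRF elements in 7 (7.69%, against 4.30%) and interferon response cores in 2 (2.20%, against 3.13%). AP-1 was found in 14 (15.4%, against 8.12%), CEBP in 17 (18.7%, against 9.54%), PU.1 in 12 (13.2%, against 7.74%) and RUNX in 7 (7.69%, against 5.58%). Of the 6 IRF8KO-specific regions 3 held an M-box, at Bhlhe41, Mitf and Tfec (5.95% of all IRF8KO-specific regions) and 3 a CEBP motif (20.6%), and of the 7 WT-specific regions 2 held ETS-IRF (18.7%) and none an M-box. Overlapping matches of different motifs were each counted.

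Strict peaks counted per gene differed in sign between genes. Over all chromosomes used, strict peaks numbered 97473 and 98863 in WT against 83996 and 95921 in IRF8KO, fewer in both IRF8KO libraries. At Tfec there were 11 and 10 in WT against 12 and 16 in IRF8KO, and 17 and 15 against 20 and 21 at Mitf. At Tfeb they numbered 14 and 15 against 12 and 12, at Bhlhe40 7 and 7 against 6 and 5, at Tfe3 10 and 9 against 9 and 8, and at Bhlhe41 8 and 8 against 8 and 12. No permutation p could fall under 0.3333. Peak number and height did not go together at Bhlhe40, which had fewer strict peaks and the higher promoter in IRF8KO, its separate WT promoter peaks being joined into fewer and longer peaks in both IRF8KO libraries. The differences at Bhlhe40 turned positive when all deposited peaks were counted (1), with no flank (0.5) or with a flank of 50 kb (5.5).

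Few promoters of genes that act on or beside these factors passed the threshold. Of 22 regulators of MiT factors (mTORC1, Rag, folliculin and calcineurin genes), 21 had a tested promoter region, 0 rose and 1 fell: a weak alternative promoter region of Rptor, which encodes the mTORC1 scaffold raptor, went from 0.447 and 0.245 to 0.127 and 0.136 (log2 -1.34, SE 0.46, limma adjusted p = 0.0400). The strongest Rptor promoter region had 1.81 and 1.47 in WT against 1.36 and 1.60 in IRF8KO. Of 22 other E-box factors, 0 promoters rose and 2 fell: Mycl, a MYC family gene, from 1.79 and 1.57 to 0.457 and 0.966 (log2 -1.34, limma adjusted p = 0.0499), and Mlxipl, which encodes the carbohydrate response factor ChREBP, from 1.09 and 0.736 to 0.203 and 0.453 (log2 -1.56, adjusted p = 0.0364). Of 10 clock genes, some of which BHLHE40 and BHLHE41 repress in the circadian loop, no promoter passed in either direction. Over all promoter regions 0.991 percent rose and 3.48 percent fell. Counted as regions, after median centring 3 rose and 3 fell of 38 tested promoter regions in the first list, 3 and 3 of 52 in the second and 1 and 4 of 17 in the third, against 7.41 percent and 8.24 percent of all promoter regions. Promoter regions without a peak in 1 genotype lie outside this test. In the 3 lists 4 of 56, 2 of 72 and 1 of 27 promoter regions were WT-specific (3.20% of all promoter regions), among them 2 of Ppp3ca and 1 of Myc. IRF8KO-specific were 1, 2 and 2 (2.57% of all), at Rragc, Mycl, Npas2, Per2 and Cry2, so that Mycl had a promoter region that fell and another that was IRF8KO-specific. The median log2 difference of the regions around the genes was -0.34, -0.28 and -0.36 in the 3 lists, against -0.31 over all regions and -0.11 over the 47 regions of the 6 factors.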

How the data were processed

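ATAC-seq was measured in 4 libraries of sorted microglia, 2 WT and 2 IRF8KO. The authors deposited 1 peak list per library. Per the file headers, MACS2 2.1.1.20160309 was run with a p cutoff of 0.01, no control library, cut sites extended to 73 bp and a local background of 10 kb; tag size was 50 bp in WT and 49 bp in IRF8KO. The submitters' processing notes name the build mm10 and the tools bcl2fastq, Bowtie2, MACS2 and deepTools. The deposited pileup is a signal in whole cut sites, not scaled for depth. As a ratio of pileup to local background the authors deposited a fold enrichment, and the deposited p and q are −log10 values; the headers say that q was not calculated although the column is filled.

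Peaks on 20 chromosomes were reduced to distinct intervals. Strict peaks (−log10 q of at least 2) of the 4 lists were merged, and a library's value in a region is its highest overlapping pileup per 1000000 header tags (normalised pileup). Specific regions needed a 1 bp overlap with strict peaks in both libraries of 1 genotype and no deposited peak in the other. limma 3.58.1 (R 4.3.3) was fitted to log2 values of regions listed in all 4, which leaves out regions lost from a library. Genotypes were also compared by exact permutation. Promoters lie within 1 kb of a GENCODE M21 start site. Regions named were all genotype-specific and limma regions, promoter regions, the 2 highest per gene, and, chosen after their values were seen, regions called after centring, single weak regions and the E-box region downstream of Bhlhe41. Motifs were searched on both strands within 100 bp of summits. The 6 genes, the gene lists and the motifs were chosen with earlier results of these data known. Depth and tag size follow genotype and cannot be told apart from it.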

Additional observations from a re-analysis of the deposited data

How the results depend on the processing

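Alternatives covered thresholds, flanks, scaling, filters and leaving out each library. The count of WT-specific regions was 7 and went to 4 with a −log10 q of 5, to 11 with a flank of 50 kb, and to 8 to 11 when a library was left out. The count of IRF8KO-specific regions was 6 and went to 12 with all deposited peaks, 12 with a flank of 50 kb, 3 with an overlap of 50% and 6 to 17 when a library was left out. A flank of 50 kb also changes the set of regions. For both kinds, the shares of all regions under these alternatives are not given here, so the counts show only how far they move. With median centring 11 of 47 regions rose and 4 fell, against 13.3% and 12.5% of all regions. With fold enrichment 3 of 47 rose and 3 fell, against 2.45% and 3.57% of all. With a flank of 50 kb, which takes in more regions, 5 fell, and the number tested at that flank is not given here. Leaving out a library gave 1 to 7 regions that rose and 0 to 6 that fell, while 0.220% to 5.71% and 0.229% to 21.5% of all regions did; where it leaves 1 library in a genotype, that library is assumed to vary like the others. Replicate numbers are in the labels, but deviations of same-numbered libraries did not correlate (r = 0.0044 over 58550 regions). With 2 libraries per genotype this check rests on 1 difference in each, so it cannot exclude pairing. With a replicate block 1 region rose (Tfec, limma adjusted p = 1.58e-04, against 0.564% of all regions) and 0 fell (against 1.49% of all). The calls at the other 6 regions ended, the smaller residual degrees of freedom being part of that fit.

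The promoter difference (normalised pileup) became positive under median centring at Bhlhe41 (0.26), Mitf (0.12) and Tfe3 (0.36), and under fold enrichment at the same genes (1.16, 0.87 and 0.98 in fold enrichment units). Leaving out a library gave -0.77 to 0.42 at Bhlhe41, -1.90 to 0.47 at Mitf and -1.03 to 0.31 at Tfe3. With a limit of 2 kb the Bhlhe41 value was -0.56. Strict peak differences turned at Bhlhe40 with all deposited peaks (1), no flank (0.5) and 50 kb (5.5), and at Bhlhe41 with a −log10 q of 5 (-1). Log2 differences became positive under centring and under fold enrichment at the Mitf main promoter (0.046 and 0.046), the Mitf internal promoter (0.27 and 0.37) and the Tfe3 promoters (0.14 and 0.088, 0.25 and 0.20), and under centring in the Bhlhe41 gene body (0.28), none of them past the threshold. With fold enrichment the Bhlhe40 intronic region went to -1.62 and the region 2.17 kb upstream to -0.43. Leaving out a library gave ranges of -0.065 to 0.21 at the intronic region, -0.44 to 0.40 in the Bhlhe41 gene body, -0.64 to 0.12 and -0.32 to 0.26 at the Mitf promoters, and -0.43 to 0.11 and -0.44 to 0.33 at the Tfe3 promoters. Causes were not tested. Peaks absent from a list can lie under the lowest deposited pileup, 6 in WT and 7 or 8 in IRF8KO.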
